A study of Homo sapiens with 4 samples.

Results

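The 10 genes that mark the epithelial or the mesenchymal state of a cell were followed in PC3 and DU145 cells, both established human prostate cancer cell lines, with or without knockdown of ESS2. They were chosen by name and on measured values of these same arrays, among them the fall of OVOL2 in DU145 cells, and they are 10 of the 25121 genes with a symbol on the array. The 6 epithelial members were CDH1, OVOL1, OVOL2, ESRP1, ESRP2 and GRHL2, and the 4 mesenchymal members were CDH2, VIM, ZEB1 and SNAI2. As the values below chose the members, they are given as a description, without a test. PC3-shC and DU145-shC cells expressed an shRNA against luciferase, and PC3-shESS2 and DU145-shESS2 cells an shRNA against ESS2, a nuclear protein that copurifies with the spliceosome. All cells were grown in RPMI1640 with 10% serum and antibiotics, and their total RNA was hybridized to 1-colour Agilent human arrays, with 1 array for each of the 4 conditions and 0.1 µg of RNA on each. The labels speak of lentiviral transduction, and the methods of the study of transfected shRNA plasmids and puromycin selection, so the way the shRNA was delivered is not settled. The shRNA sequence, and whether a line was 1 clone or a pool, are not given in the sources used here.

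Epithelial cells hold together through E-cadherin, the product of CDH1, and in an epithelial-mesenchymal transition they replace it by N-cadherin, the product of CDH2, and build vimentin filaments from VIM. ZEB1 and SNAI2 (Slug) are repressors that bind E-box motifs at CDH1 and other epithelial genes, whereas OVOL1, OVOL2 and GRHL2 are transcription factors that keep epithelial genes on and mesenchymal regulators such as ZEB1 off. ESRP1 and ESRP2 are splicing factors that give transcripts such as those of FGFR2 and CD44 their epithelial isoforms. The miRNAs of the miR-200 family and miR-205 target the ZEB1 transcript, and ZEB1 in turn represses the miR-200 genes.

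The mature sequences of 3 of these miRNAs are shown because the transcripts that host them were measured on the arrays, although the miRNAs were not. They come from RefSeq (GRCh38.p14), 5′ to 3′, and the seed, from base 2 to base 8, is in capitals.
hsa-miR-200c-3p: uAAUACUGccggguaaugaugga
hsa-miR-141-3p: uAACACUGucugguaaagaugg
hsa-miR-205-5p: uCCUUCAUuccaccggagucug
The sites of miR-200c and miR-141 follow each other on chromosome 12, at chr12:6963742-6963764 and chr12:6964155-6964176 of the plus strand, and that of miR-205 is at chr1:209432166-209432187. No seed was shared between the 3.

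For 3 of the 10 members, VIM, ZEB1 and CDH2, RefSeq start sites could be used to read upstream sequence. The 250 bases before the most upstream start of ZEB1 (chr10:31318167-31318416, plus strand) and before the start of VIM (chr10:17227991-17228240, plus strand) are shown because both genes were over 2-fold higher in PC3-shESS2 than in PC3-shC cells (values below). The E-box CACCTG, the motif of the ZEB and SNAI factors, was searched on both strands, on which it reads CACCTG or CAGGTG, and a match is in capitals.
ZEB1: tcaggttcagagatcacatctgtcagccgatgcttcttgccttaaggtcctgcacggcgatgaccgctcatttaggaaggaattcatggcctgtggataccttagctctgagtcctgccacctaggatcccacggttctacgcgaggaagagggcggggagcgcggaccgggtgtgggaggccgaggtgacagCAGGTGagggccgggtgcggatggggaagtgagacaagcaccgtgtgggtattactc
VIM: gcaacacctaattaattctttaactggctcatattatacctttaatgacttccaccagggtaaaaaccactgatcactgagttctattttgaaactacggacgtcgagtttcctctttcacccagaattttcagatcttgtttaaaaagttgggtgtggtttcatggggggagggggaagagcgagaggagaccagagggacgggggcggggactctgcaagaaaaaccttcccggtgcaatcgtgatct
The ZEB1 stretch held 1 match and the VIM stretch none. Of the 6 other start sites of ZEB1, 1 had 2 matches in its 250 bases (chr10:31318966-31319215) and 5 had none, and both start sites of CDH2 had none. The motif was present in 17.5% of the 35116 upstream stretches of this length.

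The arrays were first checked against their labels through ESS2, CTNNA1, KLK3 and TMPRSS2. None of these is particular to DU145 cells, so the identity of that line was not checked. The processed signal of ESS2 was 133 in PC3-shC, 53.6 in PC3-shESS2, 85.7 in DU145-shC and 17.3 in DU145-shESS2 cells. Signal here is the background-subtracted brightness of a probe, and ratios were taken after dividing by the 75th percentile of the array (263, 290, 212 and 218 in the same order). ESS2 was thus lower in both knockdown arrays, with log2 ratios of -1.45 and -2.35. CTNNA1, which is deleted in PC3 cells, did not rise well above background in PC3-shC or PC3-shESS2 cells and was at 4320 in DU145-shC cells, and KLK3 (PSA) was not well above background on any array. TMPRSS2, a luminal prostate gene, was at 104 in PC3-shC and 43.0 in PC3-shESS2 cells. Between 50.8 and 52.6% of the spots were well above background, and the log2 ratio of a probe spotted 10 times varied between single spots by a median SD of 0.079 in either knockdown comparison. This spread covers neither the hybridization nor the cells. Both arrays of a line shared a slide, so that line and slide cannot be told apart. Over the 4 arrays there were also 2 scans and 2 versions of the extraction software, whose part in the differences between the lines was not tested.

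The members were measured by 13 probes, 1 for each of 7 genes and 2 each for GRHL2, CDH2 and ZEB1, and each gene was well above background on at least 1 array. The probe with the highest mean stands for a gene, and no level is set against that of another gene. In the control arrays the 2 lines differed in every member by over 2-fold, with 8 members higher and 2 lower in PC3-shC than in DU145-shC cells. Of 17475 genes compared, 42% differed by over 2-fold, 22.1% being higher and 19.9% lower in PC3-shC cells. All 6 epithelial members were higher in PC3-shC cells, with a median log2 ratio of 5.02 against 0.12 over all genes compared. The mesenchymal members were split, with CDH2 and SNAI2 higher and VIM and ZEB1 lower.

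**Figure D1:**
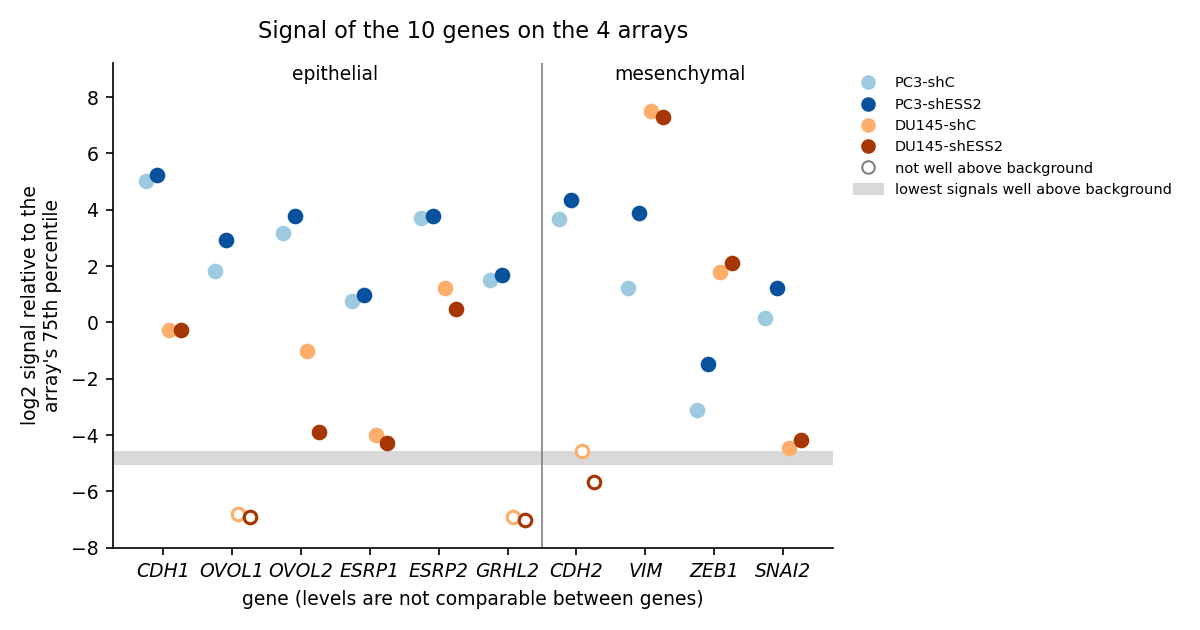
The log2 signal relative to the 75th percentile of the array is plotted for the 10 genes, 1 point for each of the 4 arrays, with open points for signals not well above background and a grey band for the lowest signals that were. All 6 epithelial genes, CDH2 and SNAI2 are higher on both PC3 arrays than on both DU145 arrays, and VIM and ZEB1 are lower.

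CDH1, which encodes E-cadherin, had a signal of 8483 in PC3-shC, 10812 in PC3-shESS2, 176 in DU145-shC and 180 in DU145-shESS2 cells. The probe was spotted 10 times, and the log2 signal varied between its spots by an SD of 0.082 to 0.13. Both PC3 arrays were far above both DU145 arrays, 38.9-fold for the controls, and the arrays of a line lay close together. OVOL2 had a signal of 2390 in PC3-shC, 3970 in PC3-shESS2, 106 in DU145-shC and 14.7 in DU145-shESS2 cells, so that the control arrays were 18.2-fold apart (log2 ratio 4.18, and 3.51 with normexp, a background correction that adds an offset of 50) and the lowest value by far was that of the DU145 knockdown.

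OVOL1 was at 922 in PC3-shC and 2180 in PC3-shESS2 cells and was not well above background in DU145 cells, where the signals were 1.9 and 1.8. GRHL2 was at 755 and 923 in PC3-shC and PC3-shESS2 cells and at 1.79 and 1.69, not well above background, in DU145 cells. Against the lowest signal well above background on the DU145-shC array, OVOL1 was at least 85.9-fold and GRHL2 at least 70.4-fold higher in PC3-shC cells, and with normexp background correction their log2 ratios were 3.84 in place of 6.42 and 3.65 in place of 6.14. These 2 factors were thus measured only in PC3 cells, and no knockdown ratio is given for them in DU145 cells. The other GRHL2 probe gave 37.2, 46.1, 6.15 and 4.73, again not well above background on the DU145 arrays, which bounds the difference of the control arrays only at 3.47-fold or more.

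The splicing factors followed the same order of lines. ESRP1 was at 449 in PC3-shC, 565 in PC3-shESS2, 13.4 in DU145-shC and 11.1 in DU145-shESS2 cells, and the DU145 values lay just above the lowest signals well above background, 8.65 and 8.15. ESRP2, whose probe was spotted 10 times, was at 3401, 3980, 498 and 302. The control arrays were 27.0-fold apart for ESRP1 (log2 ratio 4.76, and 2.72 with normexp) and 5.51-fold for ESRP2.

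Among the mesenchymal members, VIM had a signal of 620 in PC3-shC, 4250 in PC3-shESS2, 38100 in DU145-shC and 34500 in DU145-shESS2 cells. ZEB1 was at 30.4, 104, 737 and 948 in the same order. For both genes each DU145 array was higher than each PC3 array, VIM being 76.2-fold and ZEB1 30.1-fold lower in PC3-shC than in DU145-shC cells (for ZEB1 a log2 ratio of -4.91, and -3.50 with normexp). CDH2, which encodes N-cadherin, ran the other way, with 3320 and 5850 in PC3-shC and PC3-shESS2 cells and 9.01 and 4.35, not well above background, in DU145 cells. CDH2 was at least 297-fold higher in PC3-shC cells by this probe and at least 107-fold higher by the other, and with normexp background correction its log2 ratio was 5.50 in place of 8.21. SNAI2 was at 291, 680, 9.75 and 12.1, which put PC3-shC cells 24.1-fold above DU145-shC cells (log2 ratio 4.59, and 2.25 with normexp). The control array of PC3 cells thus held high CDH1 together with high CDH2 and SNAI2, and that of DU145 cells high VIM and ZEB1 with CDH2 not well above background.

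The knockdown was compared within each line next. In PC3 cells all 10 members were higher in PC3-shESS2 than in PC3-shC cells, except that ESRP2 turned to a log2 ratio of -0.017 when arrays were scaled to the median. The median log2 ratio was 0.63 against -0.055 over the 16764 genes compared. A change over 2-fold was seen in 4 of 10 members, all higher, VIM, ZEB1, OVOL1 and SNAI2, where 7.75% of all genes differed by over 2-fold, 3.88% higher and 3.87% lower. The 3 mesenchymal members among them had log2 ratios of 2.64 for VIM (6.22-fold), 1.63 for ZEB1 (3.10-fold) and 1.08 for SNAI2 (2.12-fold). VIM ranked at 55 among the genes that were higher, and in these bulk samples more cells with VIM and more VIM in each cell cannot be told apart. The remaining mesenchymal member, CDH2, had log2 ratios of 0.68 and 0.85 by its 2 probes.

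The ZEB1 value rested on low signals, although its first probe was well above background on both PC3 arrays. Its second probe was at 2.33, not well above background, in PC3-shC and at 12.6 in PC3-shESS2 cells, which bounds the change only at 1.28-fold or more, and the PC3-shC signal of the first probe was 30.4 with a scanner error of 3.62. With normexp background correction the log2 ratio of ZEB1 was 0.88 and that of SNAI2 0.96, and with the mean of its probes that of ZEB1 was 0.99. With scaling to the median OVOL1 was at 0.998 and SNAI2 at 0.98, so that only VIM stayed over 2-fold higher under each choice tried.

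The epithelial members were not lower where the mesenchymal members were higher. OVOL1 had a log2 ratio of 1.10 in PC3 cells (2.14-fold higher), OVOL2 of 0.59, CDH1 of 0.21, ESRP1 of 0.19, GRHL2 of 0.15 and ESRP2 of 0.086. The median was 0.20 for the epithelial and 1.36 for the mesenchymal members. The ratios of ESRP2 and GRHL2 lay within 2 times the spread between spots (0.079), and that spread does not cover the cells. With 1 array a condition, a difference in the cultures and an effect of the shRNA cannot be told apart.

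**Figure D2:**
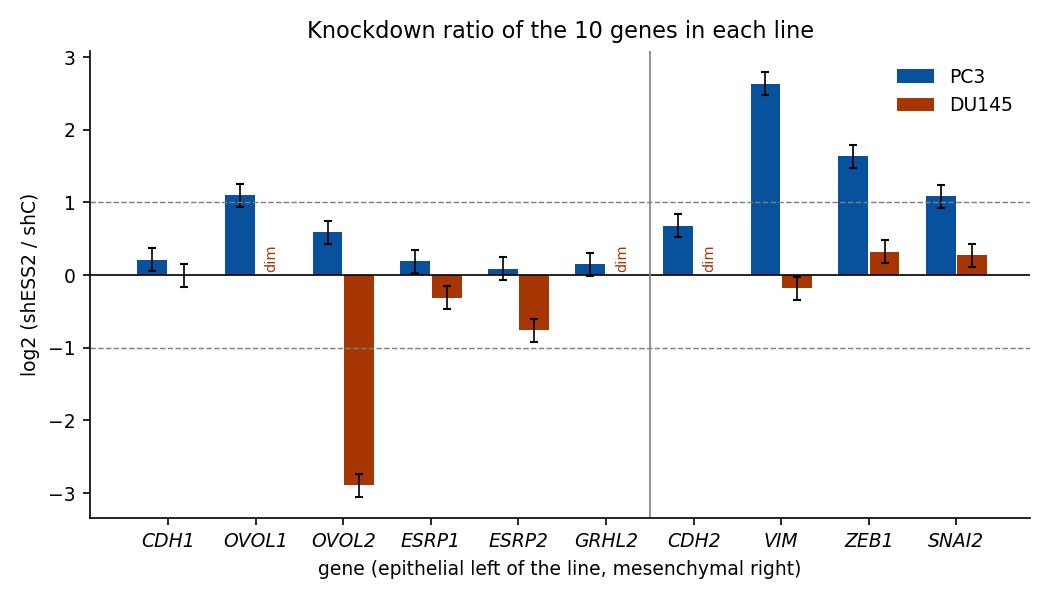
The log2 ratio of shESS2 over shC is plotted for the 10 genes, as bars for PC3 and DU145 cells, with dashed lines at a 2-fold change and "dim" where neither array of the line was well above background. Error bars are 2 times the median SD between spots of probes spotted 10 times and well above background in each spot. They do not cover the larger relative scanner error of genes near background. The bars of VIM, ZEB1, OVOL1 and SNAI2 pass the upper dashed line in PC3 cells, and the bar of OVOL2 alone passes the lower one, in DU145 cells.

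In DU145 cells, 7 of the 10 members could be compared, and 1 of them, OVOL2, changed by over 2-fold, where 4.83% of the 16842 genes compared did, 2.36% higher and 2.47% lower. OVOL2 was at 106 (scanner error 10.9) in DU145-shC and at 14.7 (scanner error 2.61) in DU145-shESS2 cells, a log2 ratio of -2.89 or a 7.41-fold lower signal, and this was the 9th largest of all falls in the line. The value had chosen OVOL2 and is no test of it, and its probe was spotted once. With normexp background correction the log2 ratio was -1.07, and under the other choices it was between -2.98 and -2.86.

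The other epithelial members compared in DU145 cells differed by less than 2-fold. ESRP2 had a log2 ratio of -0.76 (1.69-fold lower), well beyond the spread between spots, ESRP1 of -0.31 at signals close to background, and CDH1 of -0.0032, which turned positive, up to 0.026, under other scalings. The mesenchymal members compared stayed within 2-fold, with ZEB1 at 0.32 and 0.098 by its 2 probes, SNAI2 at 0.27 and VIM at -0.18. With normexp background correction SNAI2 was at 0.00019 and ESRP1 at -0.042, and with quantile normalization VIM was at -0.050. The CDH1 signals thus differed by less than the spread between spots in the line where OVOL2 was lower. The median was -0.54 for the 4 epithelial and 0.27 for the 3 mesenchymal members, against -0.022 over all genes compared. The mesenchymal median is the value of SNAI2, which normexp brought to 0.00019.

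The 2 lines were then set side by side. OVOL2 was 1.51-fold higher in PC3-shESS2 and 7.41-fold lower in DU145-shESS2 cells, each relative to its own control. VIM was 6.22-fold higher in PC3-shESS2 and 1.14-fold lower in DU145-shESS2 cells, and ESRP1 was 1.14-fold higher and 1.24-fold lower. ZEB1 was 3.10-fold and SNAI2 2.12-fold higher in PC3-shESS2 cells, with the limits given above. In DU145-shESS2 cells ZEB1 was 1.25-fold higher by one probe and 1.07-fold by the other, and SNAI2, at 9.75 (scanner error 2.10) and 12.1 (scanner error 2.13), differed by about the scanner error. Whether the lines differ was not tested, as a difference of the lines leaves no replicate. Across both lines, a limma fit with the line as a block found 0% of 17126 genes at an adjusted p under 0.05, so 0 of the 76 other listed genes that entered it. It had 1 residual degree of freedom, and 1047 genes had an unadjusted p under 0.05. ESS2, lower in both knockdown arrays, was among the 76 and was not called either. The fit could thus not pick out even its target, and 0 calls do not show that shared changes are absent.

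The 5 genes whose profile over the 4 arrays lay nearest to that of OVOL2, by the distance between log2 values centred on each gene's mean, were CLDN7, JAG1, ANK3, MAL2 and PKIB, at distances from 1.11 to 1.30 among 17126 genes. CLDN7, a claudin of tight junctions, was at 6820 in PC3-shC, 5880 in PC3-shESS2, 233 in DU145-shC and 62.8 in DU145-shESS2 cells. MAL2, a protein of apical membrane traffic, was at 26100, 35600, 488 and 225. JAG1, a Notch ligand, was at 1030, 1380 and 20.1, and at 8.39 in DU145-shESS2 cells. The search over all 4 arrays fixed that their profiles resemble that of OVOL2, and their DU145 knockdown log2 ratios, from -1.93 to -1.16, are given as a description. In PC3 cells they moved both ways, from -0.47 for PKIB to 0.93 for ANK3, which encodes ankyrin-G.

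**Figure D3:**
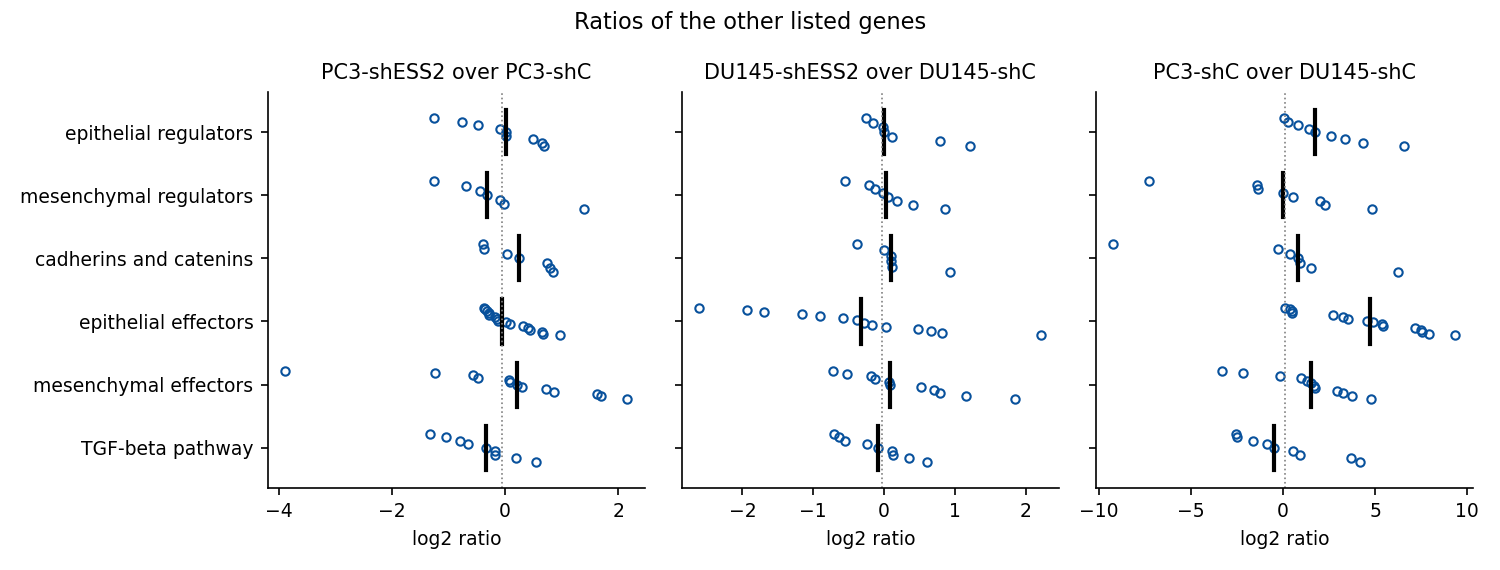
The log2 ratio of each listed gene that could be compared is plotted, 1 open point a gene, for 6 lists and 3 comparisons, with a black bar at the median of the list and a dotted line at the median of all genes compared. The epithelial effectors spread widely in DU145 cells, from -2.61 to 2.22, stay within 2-fold in PC3 cells, and are higher in PC3-shC than in DU145-shC cells for all 16 genes.

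Further genes of the epithelial program were taken from lists. Among 16 epithelial effectors, genes of junctions, surface proteases and traffic, all 16 were higher in PC3-shC than in DU145-shC cells, 12 of them by over 2-fold, where 22.1% of all genes were, with a median log2 ratio of 4.73. In DU145 cells 14 could be compared, and 4 were over 2-fold lower and 1 over 2-fold higher in the knockdown, against 2.47% and 2.36% of all genes, with a median of -0.33. FXYD3 has only a bound there, of at least 1.40-fold higher. Those lower were EPCAM, an adhesion protein, from 2120 to 357 (log2 ratio -2.61), CLDN7 (-1.93), SPINT1, an inhibitor of surface proteases (-1.70), and MAL2 (-1.16). The count depends on the probe, as MAL2 was at -0.87 by its other probe. CDS1, not counted at -0.90, was at -1.81 by its other probe. The claudin CLDN4 was higher, from 983 to 4720 (2.22), so the tight-junction genes did not move as 1 group. In PC3 cells 0 of the 16 passed 2-fold, where 7.75% of all genes did, and EPCAM was at -0.38.

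Of the other epithelial regulators, 9 of 12 could be compared in PC3 cells, where EHF, an ETS factor, was lower (1020 to 470, log2 ratio -1.26) and the rest stayed within 2-fold. Of all genes 3.87% were over 2-fold lower there. In DU145 cells 7 of 12 could be compared, and KLF5 was higher, from 205 to 489 (1.21), where 2.36% of all genes were over 2-fold higher. GRHL1, a paralog of GRHL2, had ratios of 0.016 in PC3 and 0.11 in DU145 cells and was well above background on all 4 arrays.

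Of the other mesenchymal regulators, 7 of 12 could be compared in PC3 cells, and 1 was higher and 6 were lower, with a median log2 ratio of -0.32. TWIST1 was the 1 that was higher, from 54.8 to 159 (1.40), and TCF3 was over 2-fold lower (-1.25). Of all genes 3.88% were over 2-fold higher and 3.87% lower. SNAI1, which encodes Snail and is a paralog of SNAI2, had a ratio of -0.03 in PC3 cells. TWIST2 was well above background in DU145 cells only, at 1110 and 1190. Of the 8 genes compared in DU145 cells, 0 had a ratio or bound over 2-fold, where 4.83% of all genes did. ZEB2 had only a bound there, at least 1.81-fold higher in the knockdown. Among 13 of 16 mesenchymal effectors compared in PC3 cells, LUM (2.16), LOX (1.69) and AXL (1.62) were over 2-fold higher and SPARC (at least 14.8-fold, as PC3-shESS2 cells were not well above background) and ACTA2 (-1.24) over 2-fold lower, where 3.88% of all genes were higher and 3.87% lower. FN1, which encodes fibronectin, was at 293 and 585 (0.86) on the PC3 arrays. In DU145 cells 11 could be compared, and LOX (1.85) and S100A4 (1.16) were over 2-fold higher, where 2.36% of all genes were.

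Among 10 other cadherins and catenins, 7 could be compared in PC3 and 6 in DU145 cells, and 0 had a ratio or bound over 2-fold. Of all genes compared, 7.75% in PC3 and 4.83% in DU145 cells differed by over 2-fold. CDH4 has only a bound in PC3 cells, at least 1.80-fold higher in the knockdown. CDH11, a mesenchymal cadherin, was at 816 and 1550 in PC3 cells (log2 ratio 0.78) and, like CDH2, not well above background in DU145 cells. CTNNA1, the catenin that ties E-cadherin to actin, was at 4320 and 4810 in DU145 cells and not well above background in PC3 cells, so the PC3 cells with high CDH1 lacked measurable signal of this partner. The median log2 ratio of the 9 TGF-beta pathway genes was -0.33 in PC3 and -0.082 in DU145 cells. TGFBR1 (-1.33) and SMAD3 (-1.04) were over 2-fold lower in PC3 cells, where 3.87% of all genes were. In DU145 cells 0 of 9 passed 2-fold, where 4.83% of all genes did.

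The host transcripts of the miRNAs printed above differed between the lines. MIR200CHG, the host of miR-200c and miR-141, was not well above background in PC3 cells (3.52 and 6.76) and was at 103 in DU145-shC and 58.6 in DU145-shESS2 cells, a log2 ratio of -0.85. MIR205HG, the host of miR-205, was at 2550 and 1600 in PC3 cells (-0.81) and by its other 2 probes at -1.12. In DU145 cells its first probe read 153 and 155 while the others were not well above background, so the probes disagree there. MIR200CHG was thus low in the line where ZEB1 was low, with 1 array a condition. Within DU145 cells the 2 moved apart, with MIR200CHG lower and ZEB1 higher in the knockdown (737 to 948, log2 ratio 0.32). Their relation was not tested.

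Markers of other cell types are given beside the VIM and ZEB1 values. Of 5 fibroblast markers, COL1A2, DCN and PDGFRA were not well above background on any array, and LUM, which is also a mesenchymal effector, was at 9.9 in PC3-shC and 48.8 in PC3-shESS2 cells (4.47-fold higher), while COL1A1 was at 265 and 197. The summed level of the list, in multiples of the 75th percentile, was 1.07 and 0.87 on the PC3 and 0.44 and 0.39 on the DU145 arrays. Of 3 endothelial markers the sum was 1.56 and 0.35 on the PC3 and 0.28 and 0.32 on the DU145 arrays, led by PECAM1 at 338 and 16.4 in PC3 cells, and for the 3 leukocyte markers measured it was 1.10 and 0.42, and 0.96 and 1.43, with CD14 at 221 and 54.7 in PC3 cells. The part of such cells in the VIM and ZEB1 values was not tested.

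**Figure D4:**
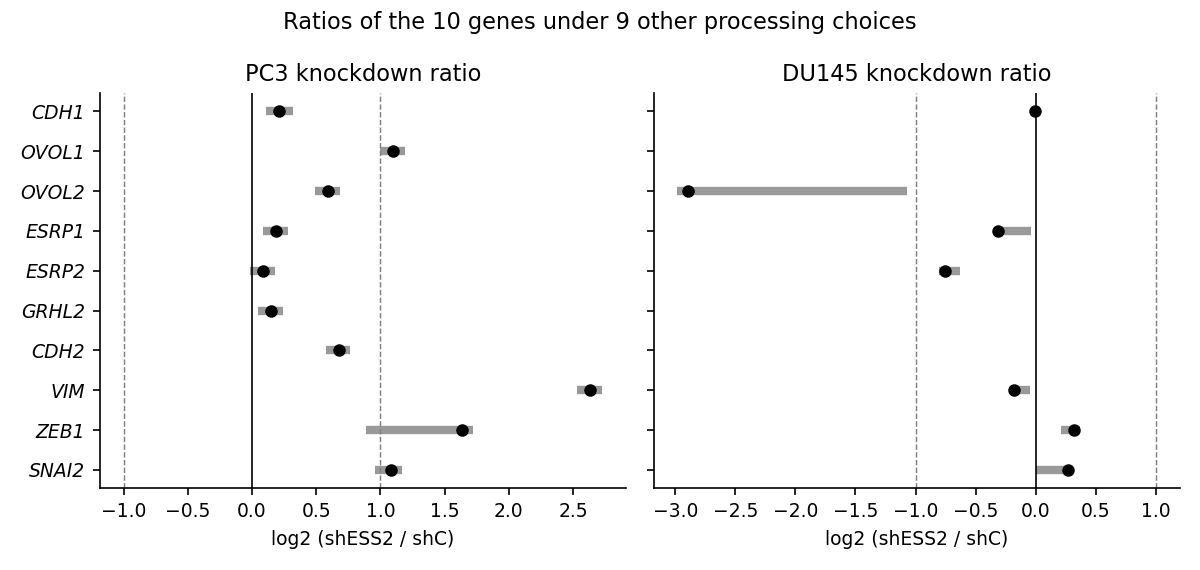
The log2 ratio of shESS2 over shC is plotted for each gene compared, PC3 at the left and DU145 at the right, as a black point for the value reported and a grey bar from the lowest to the highest value over it and 9 other processing choices. The bar of OVOL2 in DU145 cells reaches from -2.98 to -1.07 and that of ZEB1 in PC3 cells from 0.88 to 1.72, and VIM in PC3 cells stays between 2.53 and 2.73.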

How the data were processed

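Per the file headers, the deposited intensity values are processed signals of Agilent Feature Extraction, with background subtracted and no scaling between arrays. The authors' own table holds those intensities times 1 constant per array. GeneSpring settings are not given in the sources used here. For the values above, log2 of the processed signal minus the 75th percentile of the array was used, with control and outlier spots left out and the spots of a probe averaged. A gene entered a comparison if 1 or both arrays read it well above background, and a dim value was raised to the lowest signal well above background. Probes were named through RefSeq accessions, which matched 35080 of 58201 probes. The members, lists and tests were chosen with earlier results of these data known. Named genes were all members, the listed genes over 2-fold within a line, ESS2, markers of cell types, the miRNA host transcripts, TWIST2 and the 5 genes nearest to OVOL2. After their values were seen, GRHL1, SNAI1, CDH4, CDH11, ZEB2, FXYD3, FN1 and CDS1 were added. Listed genes between the lines are given mainly as counts. No comparison within a line has replicates, and only the limma fit gives p-values, with Benjamini-Hochberg adjustment. Other scalings, background corrections, filters and probe rules were tried. Calculations were tested on simulated data. Some markers are not reported here. Python 3.11.15, numpy 2.4.6, pandas 2.3.3, R 4.3.3 and limma 3.58.1 were used.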

Additional observations from a re-analysis of the deposited data

Results flagged for a closer look

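In 3 genes the knockdown ratio had opposite signs in the lines, each by more than 2 times the median spread between spots of brighter probes. The log2 ratio of OVOL2 was 0.59 in PC3 and -2.89 in DU145 cells, and the second minus the first was -3.48. VIM was at 2.64 and -0.18, a difference of -2.82. ESRP1 was at 0.19 and -0.31, a difference of -0.50, and its DU145 signals, 13.4 (scanner error 2.34) and 11.1 (scanner error 2.08), differed by about as much as the scanner error. In DU145 cells normexp gave ESRP1 at -0.042, and quantile normalization gave VIM at -0.050, within that spread. Scaling to the median gave ESRP1 at 0.088 in PC3 and VIM at -0.155 in DU145 cells, within 2 times that spread. With 1 array a condition, these differences between the lines were not tested.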

How the results depend on the processing

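Each of the 3 comparisons was recomputed under 9 other choices, though OVOL1, GRHL2 and CDH2 between the lines have a value under 8, as they were not well above background on both arrays. The signs of 9 of 10 members in PC3, 6 of 7 in DU145 and 10 of 10 between the lines were kept under each choice that gave a value, the exceptions being ESRP2 in PC3 and CDH1 in DU145 cells. Between the lines all 10 members stayed over 2-fold apart, and normexp gave OVOL1 at 3.84, GRHL2 at 3.65, ESRP1 at 2.72, SNAI2 at 2.25, CDH2 at 5.50 and ZEB1 at -3.50. The count of genes over 2-fold was 1299 in PC3 cells, and 571 with normexp background correction and 2624 with no filter on dim genes. In DU145 cells it was 813, and 216 and 2020 under the same choices. Scaling to the median moved the median of all genes from -0.055 to -0.16 in PC3 cells and the genes higher from 650 of 1299 to 511 of 1314 (38.9%), and the authors' scaled values moved them to 0.035 and 792 of 1327 (59.7%). Between the lines it moved the median from 0.12 to 0.58 and the share of higher among these genes from 52.6 to 72.1%, and the authors' scaled values moved them to -0.33 and 31.7%. In DU145 cells normexp moved that share from 48.8 to 64.4%. The limma fit called 0 genes under each choice, with 23 (no block) to 1313 (no filter) at an unadjusted p under 0.05. The line as a block pairs each knockdown with its control, and the fit with no block called 0 genes as well. As ESS2 itself was not called, these counts do not show that shared changes are absent. A single array for each condition limits the precision of every ratio, and the scanner error is largest, relative to the signal, for probes near background.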
